A study of Homo sapiens with 9 samples.

Results

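De novo lipogenesis is the pathway that builds fatty acids from cytosolic acetyl-CoA, and its products are then desaturated and elongated. The genes described here are ACLY, ACACA, ACACB, FASN, SCD, ELOVL5, ELOVL6, FADS1, FADS2 and SREBF1. Members were all probe sets annotated to exactly 1 of these symbols, which gave 29 probe sets of 9 genes among 41091 probe sets with a single symbol. The 3 probe sets of FADS1, a desaturase of polyunsaturated fatty acids, are annotated to FADS1 and MIR1908 together, so that gene is not analysed here. Of the 29 probe sets 24 passed a filter on low signal, and each of the 9 genes kept at least 1. The other 5 probe sets, 2 of ACACB and 1 each of FASN, FADS2 and SREBF1, were too dim to be tested.

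Transcripts of the human liposarcoma line LiSa-2, grown in DMEM/F12 with bovine serum, were measured on Affymetrix Human Genome U133 Plus 2.0 arrays. There were 3 groups of 3 arrays: bovine testicular hyaluronidase (HAase), which degrades the matrix polysaccharide hyaluronan, at 400 µg/mL for 24 h, the same enzyme and dose for 6 h, and the vehicle PBS. All groups were the same line with no genetic change named in the labels, the PBS cells were harvested at 24 h, and no group received inactivated enzyme. Whether arrays of a group came from separate cultures is not stated, so the p-values rest on the spread among these arrays alone, which may be technical.

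SREBF1 encodes the transcription factors SREBP-1a and SREBP-1c, which switch on most enzymes of this pathway. ACLY cleaves citrate to acetyl-CoA, the acetyl-CoA carboxylases ACACA and ACACB make malonyl-CoA, and FASN assembles palmitate from them. SCD places a double bond in saturated fatty acids, ELOVL6 lengthens saturated and monounsaturated chains, and FADS2 and ELOVL5 act in the synthesis of polyunsaturated fatty acids. The pathway is a feature of fat cells and of many tumours.

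Of the 3 genes of the liposarcoma amplicon on chromosome 12, MDM2 and CDK4 lay above the brightest bacterial control probe set on all 9 arrays. HMGA2 did so on all 3 arrays of each HAase group and on 1 of 3 in PBS. It was 24.9-fold higher at 24 h and 11.1-fold higher at 6 h than in PBS (limma adjusted p = 3.16e-08 and 1.44e-07). The size of these rises is uncertain, as the PBS signal was near the control level. MDM2 and CDK4 did not pass the test at either time. The epithelial markers EPCAM, CDH1 and KRT19, the leukocyte marker PTPRC, the endothelial marker CDH5 and the hepatocyte marker ALB lay above that level on none. Other markers of these lists were measured: ITGAM (leukocyte) and PECAM1 (endothelial) lay above it on all 9 arrays, and KRT18, CD3E, VWF, APOA1 and TTR on some. PECAM1 was 1.44-fold higher at 24 h and 1.32-fold higher at 6 h than in PBS (adjusted p = 4.96e-04 and 0.00242). The summed signal of 7 adipocyte markers ran between 28969 and 33579 at 24 h, between 44693 and 46874 at 6 h and between 56739 and 58782 in PBS, with all 7 above the control level on all arrays of 6 h and PBS and 6 of them at 24 h. FABP4, 1.28-fold lower at 24 h, made up most of that sum, and other markers differed by more. PLIN1 was 13.4-fold, CEBPA 6.98-fold, LPL 3.94-fold, CIDEC 3.63-fold and PPARG 2.77-fold lower at 24 h, where ADIPOQ lay above the control level on 1 of 3 arrays. At 6 h CEBPA was 8.81-fold, ADIPOQ 2.43-fold, PLIN1 2.26-fold, CIDEC 1.88-fold and PPARG 1.37-fold lower than in PBS. LPL and FABP4 did not pass at 6 h (adjusted p = 0.140 and 0.554). CEBPA was 1.26-fold higher at 24 h than at 6 h (adjusted p = 0.0229). Log2 differences between 3′ and 5′ probe sets, which track RNA integrity, moved too: relative to PBS that of GAPDH changed by -0.118 at 24 h, and that of ACTB by -0.275 at 6 h (exact permutation p = 0.1 each, two-sided). The part of these markers and of RNA integrity in the results below was not tested. In whole-culture RNA, fewer cells that express a gene and less RNA per cell cannot be told apart.

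At 24 h, among the 9 genes, SCD, FADS2, both carboxylases, ELOVL5 and SREBF1 were lower than in PBS, and ELOVL6 and ACLY were higher. SCD was 3.95-fold lower, ACACB 2.54-fold lower, FADS2 1.88-fold lower and SREBF1 1.83-fold lower, while ELOVL6 was 2.72-fold higher. FASN, the central enzyme, did not pass the test, and ACLY was only 1.18-fold higher. Fold changes here are ratios on a log2(signal + 16) scale, tested with limma across 13842 genes with Benjamini-Hochberg adjustment, and a gene is called changed at an adjusted p under 0.05. Of the 9 members 8 were called, 2 higher and 6 lower, against 40.3% of all genes tested, 17.5% higher and 22.8% lower. Their median log2 fold change was -0.45, beside -0.026 over all genes. The arrays of 24 h and PBS did not overlap for 8 of the 9, against 52.0% of all genes.

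At 6 h the changes were fewer and smaller. ACACB was 2.05-fold lower, ACACA 1.26-fold lower, FADS2 1.41-fold lower and SREBF1 1.49-fold lower than in PBS, and ELOVL6 was 1.97-fold higher. SCD also passed the test as lower, by 1.15-fold, but its other probe sets ran the other way. In all, 1 member was called higher and 5 lower, against 15.0% and 27.4% of all genes (42.4% in either direction), and the median was -0.20 beside -0.083 over all genes. The arrays did not overlap for 6 of 9 members, against 54.2% of all genes. With PBS harvested at 24 h only, 6 h of enzyme and the time of harvest cannot be told apart. That limit also holds for 24 h against 6 h of HAase. Both comparisons use the same PBS arrays. Between the 2 HAase times 4 of 9 members were called, against 33.0% of all genes: SCD, ELOVL5 and ACACB were lower at 24 h (13.3% of all genes) and ELOVL6 was higher (19.7%). Arrays did not overlap for 6 of 9, against 45.9% of all genes.

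**Figure D1:**
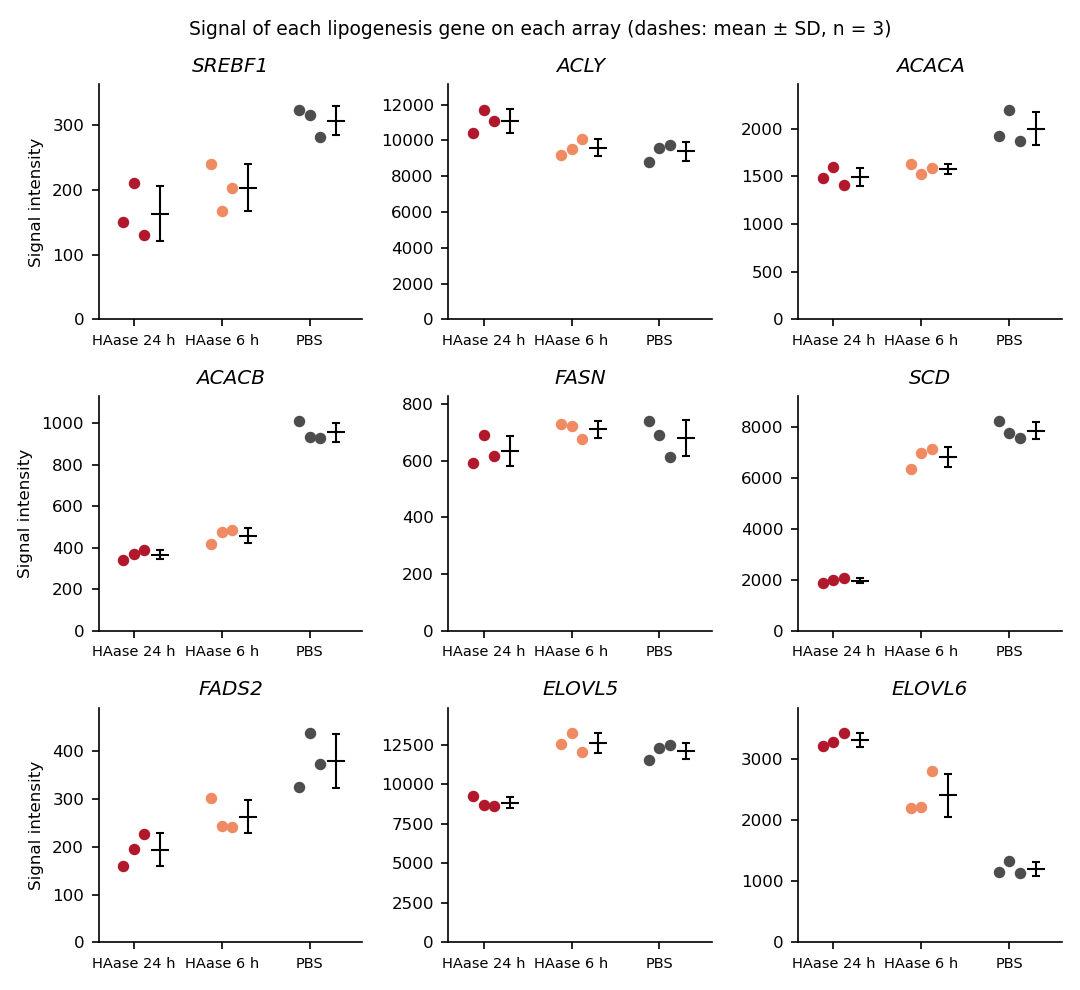
Signal intensity of the probe set used for each of the 9 genes on every array (y axis, linear from 0; panels have their own scales), for HAase 24 h, HAase 6 h and PBS (x axis); points are arrays and dashes give the mean ± SD (n = 3). SCD lies between 6372 and 7140 at 6 h, just below PBS, and between 1867 and 2088 at 24 h. At 6 h ACACB and ELOVL6 differ more from PBS (2.05-fold and 1.97-fold, against 1.15-fold for SCD).

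SREBF1 signal was 149.7, 210.4 and 129.7 at 24 h, 239.6, 166.7 and 202.3 at 6 h, and 323, 315 and 281 in PBS. Every HAase array lay below every PBS array, and the 2 HAase groups overlapped. The log2 fold change was -0.87 ± 0.18 (SE) at 24 h (limma adjusted p = 0.0056) and -0.57 ± 0.18 at 6 h (adjusted p = 0.0344). The 24 h call held in all 19 alternative settings. The 6 h call held in 9 of 19 and was lost without any 1 of the 3 PBS arrays or of 6 h replicates 2 and 3 (adjusted p between 0.0539 and 0.106). Between the times the difference was -0.30, with a 95% interval of -0.71 to 0.11. The single tested probe set does not separate the SREBP-1a and SREBP-1c transcripts.

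ACLY, which supplies acetyl-CoA, was bright in every group, at 10391, 11713 and 11100 at 24 h, 9177, 9531 and 10077 at 6 h, and 8797, 9591 and 9746 in PBS. The 24 h arrays all lay above the others, by a small margin. The log2 fold change at 24 h was 0.24 ± 0.07 (SE, adjusted p = 0.0266). Leaving out PBS array 1 or 2, or 24 h array 2 or 3, took it past the threshold, with adjusted p of 0.0513 to 0.0874. Quantile or median scaling did so too (0.0545 and 0.0852). So did no filter (0.0551), a fit of only the 2 groups compared (0.0503) and the mean of all ACLY probe sets (0.143). In all, the 24 h call held in 10 of 19 alternatives. The other 2 ACLY probe sets gave 0.17 and 0.13 and did not pass (0.315 and 0.325). At 6 h ACLY gave 0.03, with an interval of -0.13 to 0.19.

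The acetyl-CoA carboxylases both fell, ACACB by more. ACACB, which sits at the mitochondrial outer membrane and whose malonyl-CoA restrains fatty acid import for oxidation, had signals of 343, 371 and 389 at 24 h, 416, 474 and 487 at 6 h, and 1009, 932 and 928 in PBS. The 3 groups did not overlap. The log2 fold changes were -1.34 ± 0.08 at 24 h and -1.04 ± 0.08 at 6 h (adjusted p = 5.74e-06 and 3.47e-05), and both calls held in all 19 alternatives. The further fall of 0.31 between 6 h and 24 h passed (adjusted p = 0.019) but was lost without 6 h replicate 2 or 3 or 24 h replicate 1 (0.0613 to 0.0641). For the mean of all ACACB probe sets, some of them below the filter, the change was -0.085 and did not pass (adjusted p = 0.655). Of the 5 ACACB probe sets tested, 1 was called lower between the times.

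ACACA, the cytosolic carboxylase of lipogenesis, gave 1482, 1594 and 1409 at 24 h, 1631, 1522 and 1586 at 6 h, and 1925, 2200 and 1876 in PBS. Both HAase groups lay wholly below PBS and overlapped each other. On the log2 scale the change was -0.41 ± 0.08 at 24 h and -0.33 ± 0.08 at 6 h (adjusted p = 0.00354 and 0.00967). A second, dimmer ACACA probe set gave -0.09 and 0.08 and did not pass (0.693 and 0.708). With the mean of both, the call was lost at 24 h (-0.25, adjusted p = 0.112) and at 6 h (-0.13, adjusted p = 0.419). Within arrays, log2 ACACA minus log2 ACACB was higher at 24 h than in PBS by 0.93 and at 6 h by 0.70 (exact permutation p = 0.1, two-sided, the smallest that 3 against 3 arrays can give).

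FASN had signals of 593, 692 and 617 at 24 h, 729, 723 and 677 at 6 h, and 739, 689.9 and 614 in PBS. The groups overlapped in each comparison with PBS and between the times. Its log2 fold change was -0.10 at 24 h (adjusted p = 0.408) and 0.06 at 6 h (adjusted p = 0.606). The 95% intervals were -0.30 to 0.10 and -0.14 to 0.26.

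SCD, the stearoyl-CoA desaturase, showed the largest change of the 9 genes, at 24 h. Most of it lay between the 6 h and 24 h HAase arrays, where time of enzyme and time of harvest cannot be told apart. Its signals were 1867, 1981 and 2088 at 24 h, 6372, 6992 and 7140 at 6 h, and 8237, 7773 and 7585 in PBS. The 24 h arrays stood far below the rest, and the 6 h arrays just below PBS. The log2 fold change at 24 h was -1.98 ± 0.07 (SE, adjusted p = 3.53e-07), which ranked 115 from the lowest among 13842 genes. Between the times it was -1.78 ± 0.07 (adjusted p = 2.9e-06). All 4 SCD probe sets were called lower at 24 h, both against PBS and against 6 h. For 3 of them the log2 fold changes were -1.98, -1.88 and -1.95 against PBS and -1.78, -2.21 and -2.38 against 6 h. The other, the dimmest, lay above the control level on 1 of 3 arrays at 24 h, so the size of its fall is uncertain.

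The SCD probe sets did not share a direction at 6 h. The brightest, used for the gene, gave -0.20 (adjusted p = 0.0456 over genes, and 0.0692 over the 26599 probe sets tested). The other 3 gave 0.33, 0.43 and 0.28, of which the second passed as higher (adjusted p = 0.0496). The probe set that passed read 472, 454 and 465 at 6 h and 365, 321 and 333 in PBS, with no overlap. The call for the gene held in 7 of 19 alternatives. It was lost without any 1 of the 3 PBS arrays, of the 3 6 h arrays or 24 h replicate 2 (adjusted p between 0.0529 and 0.136), and the mean over the 4 probe sets was 0.21 (adjusted p = 0.143).

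FADS2, which starts the desaturation of essential fatty acids, gave 159.6, 195 and 228 at 24 h, 303, 244 and 242 at 6 h, and 325, 439 and 373 in PBS. The 3 groups did not overlap and ran in that order from low to high. Log2 fold changes were -0.91 ± 0.15 at 24 h (adjusted p = 0.00211) and -0.50 ± 0.15 at 6 h (adjusted p = 0.0328). For the mean of both FADS2 probe sets, 1 of them below the filter, the 24 h value was -0.31 and did not pass (adjusted p = 0.177). The 6 h call held in 11 of 19 alternatives, and dropping PBS array 2 or 3, or 6 h array 2 or 3, ended it (adjusted p of 0.0733 to 0.104). Between the times the difference of -0.41 did not pass (adjusted p = 0.0765), and it passed without 24 h replicate 3 (-0.53, adjusted p = 0.0461) or with the 50th percentile filter (0.0403).

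The 2 elongases moved apart. ELOVL6, which lengthens palmitate to stearate, the substrate of SCD, gave 3199, 3268 and 3422 at 24 h, 2188, 2212 and 2801 at 6 h, and 1153, 1332 and 1126 in PBS. The groups did not overlap. Its log2 fold changes were 1.45 ± 0.11 at 24 h and 0.98 ± 0.11 at 6 h (adjusted p = 2.38e-05 and 2.49e-04), and the rise between the times was 0.46 ± 0.11 (adjusted p = 0.0134). These 3 calls held in all 19 alternatives each. All 3 ELOVL6 probe sets were called higher at 24 h, by 1.45, 1.05 and 1.07, and 2 of them at 6 h.

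ELOVL5, the elongase of polyunsaturated chains, gave 9229, 8694 and 8588 at 24 h, 12527, 13250 and 12029 at 6 h, and 11513, 12302 and 12476 in PBS. The 24 h arrays lay below all others, and 6 h and PBS overlapped. The log2 fold change was -0.45 ± 0.06 at 24 h (adjusted p = 6.23e-04), -0.51 ± 0.06 between the times (5.24e-04) and 0.06 at 6 h against PBS (0.484, interval -0.082 to 0.20). The other 3 ELOVL5 probe sets were dim, with means between 89.4 and 177, and gave -0.13, -0.28 and -0.18 at 24 h, none past the test. Between the times these 3 gave -0.33, 0.06 and 0.10, and none passed (adjusted p = 0.0509, 0.878 and 0.768). The mean of all 4 did not pass at 24 h against PBS (-0.26, adjusted p = 0.0609) or between the times (-0.17, adjusted p = 0.227). Within arrays, log2 ELOVL6 minus log2 ELOVL5 was higher at 24 h than in PBS by 1.90, at 6 h than in PBS by 0.92 and at 24 h than at 6 h by 0.97 (exact permutation p = 0.1 for each, two-sided).

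**Figure D2:**
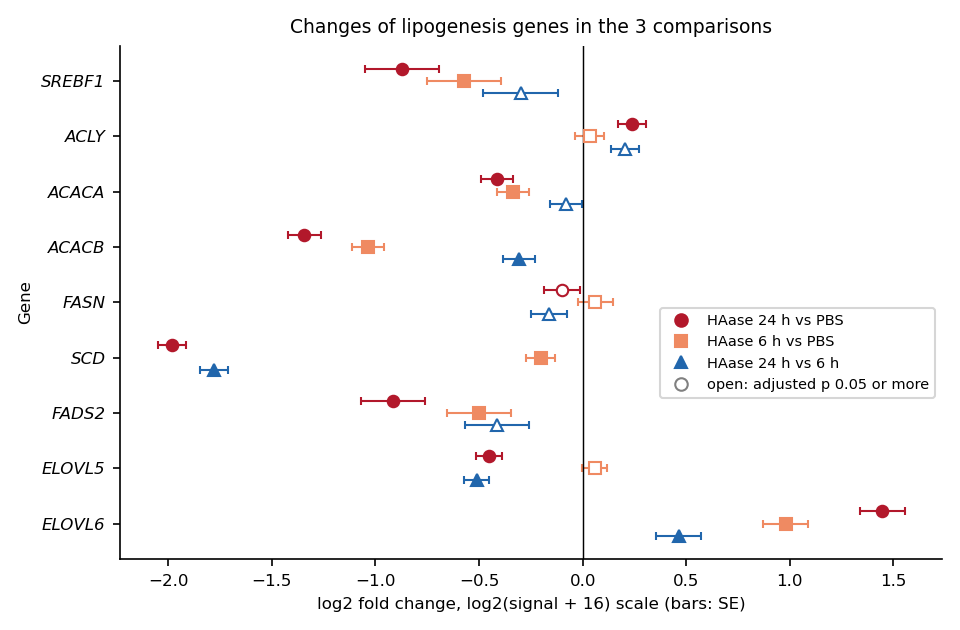
Log2 fold change of each gene (x axis, log2(signal + 16) scale; y axis, genes) for HAase 24 h vs PBS (circles), HAase 6 h vs PBS (squares) and HAase 24 h vs 6 h (triangles), with SE bars and open symbols at an adjusted p of 0.05 or more. ELOVL6 lies right of 0 in all 3 comparisons, SCD moves mainly between 6 h and 24 h, and FASN is open throughout.

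Over all probe sets that passed the filter, 15 of 24 were called at 24 h, 4 higher and 11 lower, against 33.3% of the 26599 probe sets tested (14.5% higher, 18.8% lower). At 6 h 9 were called, 3 higher and 6 lower, against 33.4% (13.0% and 20.4%). Between the times 8 were called, 2 higher and 6 lower, against 24.9% (13.6% and 11.3%). ACACB had the most probe sets, of which 3 fell in step: by 1.34, 1.43 and 1.18 at 24 h and by 1.04, 1.14 and 1.01 at 6 h on the log2 scale. Another ACACB probe set read 234, 225 and 233 at 24 h, 269.7, 249.7 and 195 at 6 h, and 218, 153 and 232 in PBS, and gave 0.20 and 0.24 with neither past the test. The last, near the control level, gave -0.96 and -0.98 with SE of 0.55 and did not pass. Probe sets of 1 gene share its RNA and are not replicates.

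**Figure D3:**
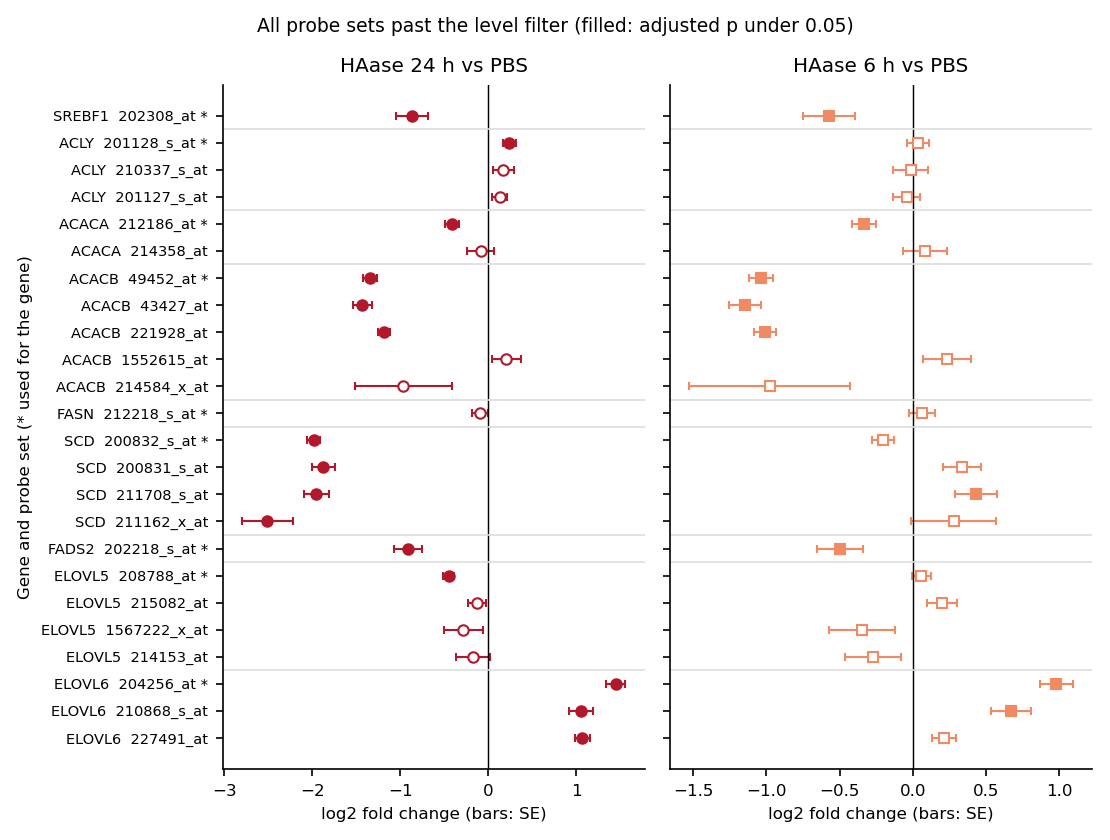
Log2 fold change (x axis, SE bars) of the 24 probe sets that passed the filter (y axis, by gene and then by falling signal; asterisks mark the probe set used for the gene), for HAase 24 h vs PBS on the left and HAase 6 h vs PBS on the right; filled symbols have an adjusted p under 0.05. All 4 SCD probe sets lie left of 0 at 24 h, and 3 of the 4 lie right of it at 6 h.

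Promoter sequence is shown for 5 genes whose changes the text turns on, the SREBP gene, the lower carboxylase and desaturase, and the pair of elongases that moved apart. Windows come from RefSeq on GRCh38.p14, and 9 of the 10 listed genes, FADS1 among them, matched with 14 windows between them. FASN had no window and was not searched. Each line gives the 250 bases before an annotated start, 5′ to 3′ on the gene's strand. Capitals mark matches on either strand to CCAAT (the NF-Y motif), GGGCGG (Sp1) and CACGTG (E-box).
SREBF1 (chr17:17836987-17837236, minus strand): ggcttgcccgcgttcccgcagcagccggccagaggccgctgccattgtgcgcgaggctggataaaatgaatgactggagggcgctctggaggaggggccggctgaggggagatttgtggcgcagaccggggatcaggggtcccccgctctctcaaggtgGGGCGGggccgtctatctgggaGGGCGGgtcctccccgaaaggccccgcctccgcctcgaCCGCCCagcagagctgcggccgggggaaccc
ACACB (chr12:109154429-109154678, plus strand): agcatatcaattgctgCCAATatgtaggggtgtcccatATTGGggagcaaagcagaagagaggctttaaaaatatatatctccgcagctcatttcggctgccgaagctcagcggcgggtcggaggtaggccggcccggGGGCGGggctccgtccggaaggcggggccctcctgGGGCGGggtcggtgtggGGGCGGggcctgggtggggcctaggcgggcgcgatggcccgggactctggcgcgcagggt
SCD (chr10:100346983-100347232, plus strand): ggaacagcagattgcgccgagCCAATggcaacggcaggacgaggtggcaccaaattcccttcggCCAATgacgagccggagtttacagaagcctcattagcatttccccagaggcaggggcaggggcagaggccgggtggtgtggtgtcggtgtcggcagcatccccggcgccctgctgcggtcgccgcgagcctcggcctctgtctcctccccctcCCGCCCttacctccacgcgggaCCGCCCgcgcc
ELOVL6 (chr4:110198616-110198865, minus strand): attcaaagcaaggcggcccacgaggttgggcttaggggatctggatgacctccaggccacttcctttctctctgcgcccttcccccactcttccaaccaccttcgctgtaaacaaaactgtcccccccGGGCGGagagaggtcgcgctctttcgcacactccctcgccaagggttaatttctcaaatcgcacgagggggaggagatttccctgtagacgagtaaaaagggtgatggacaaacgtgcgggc
ELOVL5 (chr6:53348951-53349200, minus strand): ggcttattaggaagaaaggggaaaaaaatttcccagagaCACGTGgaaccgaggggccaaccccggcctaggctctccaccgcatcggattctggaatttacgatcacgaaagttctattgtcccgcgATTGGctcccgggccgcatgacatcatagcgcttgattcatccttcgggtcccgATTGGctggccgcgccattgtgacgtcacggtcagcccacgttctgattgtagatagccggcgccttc

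The SCD window held CCAAT at 229 and 186 bases before the start and GGGCGG, as its reverse complement, at 33 and 11 bases. SREBF1 held GGGCGG at 91, 69 and 31 bases and no CCAAT. The ACACB window shown held CCAAT at 234 and 212 bases and GGGCGG at 112, 77 and 60 bases, while another ACACB window held none of the motifs. ELOVL6 held a single GGGCGG at 122 bases, and ELOVL5 held CCAAT at 122 and 68 bases and CACGTG at 211 bases. No matches overlapped in these windows.

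The sterol regulatory element in the form TCACNCCAC, and the LXR element, a spaced direct repeat, were found on neither strand in any of the 14 windows. Over 35114 RefSeq windows of 300 bases these occurred in 1.13% and 0.0199%. With shares this low, their absence from 14 windows cannot set the members apart from other genes. CCAAT occurred in 34.6% of all windows and 8 of the 14, GGGCGG in 45% and 10, and CACGTG in 7.26% and 1. These are matches of letters in short windows, and several genes contribute more than 1 window.

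Related genes of the pathway were read from a list of 53, of which 44 were tested. At 24 h 27 were called, 6 higher and 21 lower, against 40.3% of all genes, with a median of -0.21. At 6 h 25 were called, 5 higher and 20 lower, against 42.4%, with a median of -0.24. All 5 tested genes of carbon and NADPH supply were called lower at 24 h, against 22.8% of all genes. At 6 h 2 of the 5 were, against 27.4%. The largest fall was that of IDH1, the cytosolic isocitrate dehydrogenase that yields NADPH (3131 ± 172 at 24 h, 4620 ± 79.0 at 6 h and 10355 ± 849 in PBS, SD, n = 3 each). IDH1 was 3.29-fold lower at 24 h and 2.23-fold lower at 6 h. AACS, which activates acetoacetate for lipid synthesis, was 3.20-fold and 1.71-fold lower.

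Among the regulators, INSIG1, which holds SREBP precursors in the endoplasmic reticulum, went both ways. It was 4544 ± 465 at 24 h, 2424 ± 83.9 at 6 h and 3181 ± 191 in PBS (SD, n = 3 each), with log2 fold changes of 0.51 at 24 h and -0.39 at 6 h (adjusted p = 0.00194 and 0.00727). SCAP, the escort of SREBP, gave -0.31 and -0.30 and passed at both times (0.00741 and 0.00815). SREBF2, the paralogue that serves sterol synthesis, gave 0.27 at 24 h (0.129) and rose by 0.48 at 6 h (0.0159). MLXIPL, a glucose-responsive factor that also drives lipogenic genes, was 3.18-fold lower at 24 h, with 2 of 3 arrays above the control level there, and 1.67-fold lower at 6 h (adjusted p = 0.0495).

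The acyl-CoA synthetases, which activate fatty acids, differed among themselves. ACSL1, abundant in fat cells, gave 1634 ± 118 at 24 h, 5414 ± 192 at 6 h and 5136 ± 76.2 in PBS (SD, n = 3 each). Like SCD it was lower at 24 h than in PBS (3.13-fold) and than at 6 h (3.30-fold), with 0.08 at 6 h against PBS (adjusted p = 0.381). ACSL4, which prefers arachidonate, was 2.07-fold higher at 24 h and 3.12-fold higher at 6 h, and ACSL5 was 1.17-fold lower at 24 h (adjusted p = 0.0381) and 1.49-fold higher at 6 h.

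Other elongases and desaturase partners went both ways. CYB5A, an electron donor to desaturases, was 2.91-fold lower at 24 h and 1.39-fold lower at 6 h. ELOVL4, of very long chains, was 1.48-fold higher at 24 h, and FADS3, a relative of FADS2, was 1.32-fold and 1.43-fold higher at the 2 times. SCD5, a second human stearoyl-CoA desaturase, was 1.78-fold lower at 6 h and 1.39-fold lower at 24 h. Between the times, the largest rises in the list past the test were those of INSIG1 (1.86-fold), MID1IP1 (1.62-fold), an activator of the carboxylases, the AMP-activated kinase subunit gene PRKAA2 (1.35-fold) and NFYB (1.28-fold). Against PBS, MID1IP1, PRKAA2 and NFYB were lower at 6 h (log2 fold changes of -0.54, -0.53 and -0.55) and did not pass at 24 h. The largest falls between the times were those of ACSL1, CYB5A (2.10-fold), MLXIPL (1.90-fold) and AACS (1.87-fold).

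**Figure D4:**
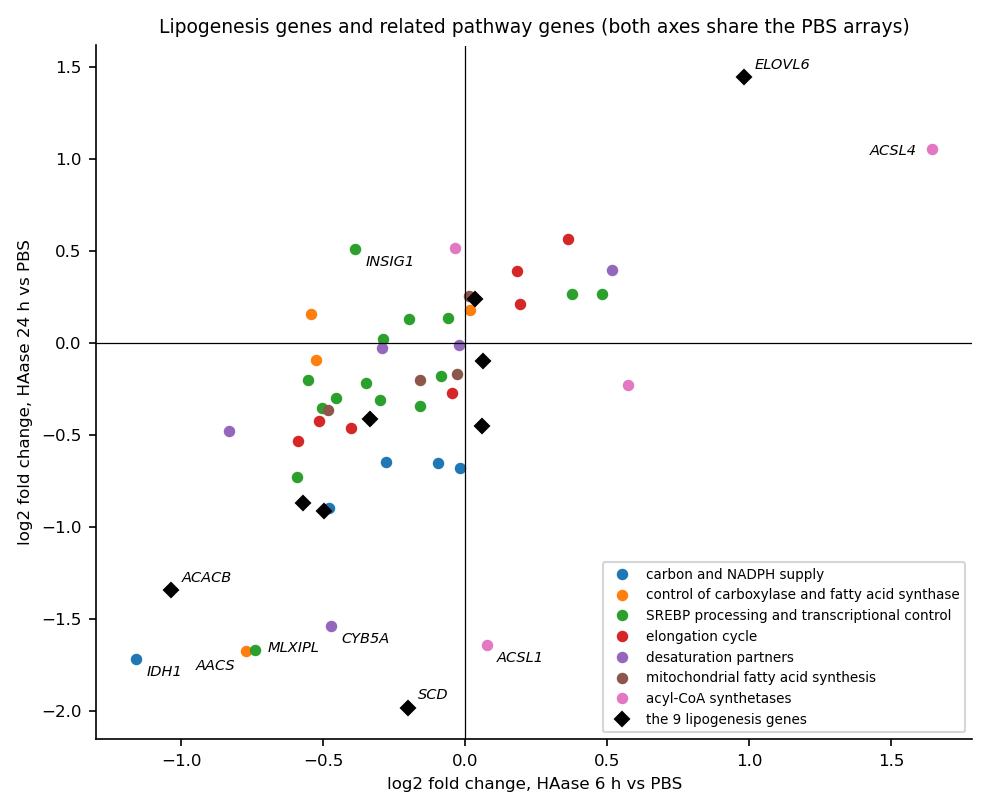
Log2 fold change at HAase 24 h vs PBS (y axis) and HAase 6 h vs PBS (x axis) for the 9 lipogenesis genes (black diamonds) and 44 related genes (circles, coloured by list). SCD and ACSL1 lie near 0 on the x axis and low on the y axis, and ELOVL6 and ACSL4 lie at the upper right; both axes share the PBS arrays.

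Genes with changes most like those of SCD were found by the Euclidean distance between pairs of log2 fold changes, at 6 h and at 24 h against PBS. The nearest 5 of the tested genes were PI15, PEG10, CASQ2, LPL and MSR1, at distances between 0.067 and 0.123. These distances rest on the brightest SCD probe set, which gave -0.20 at 6 h. The other 3 SCD probe sets gave 0.33, 0.43 and 0.28 at 6 h. LPL, lipoprotein lipase, gave -1.98 at 24 h and -0.09 at 6 h. For ELOVL6 the nearest were EFR3B, S100A16, SPATA4, PDP1 and MMP10, at 0.0576 to 0.0855, of which EFR3B did not pass at 6 h (adjusted p = 0.171). Within a distance of 0.2 there were 9 genes around SCD and 38 around ELOVL6.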

How the data were processed

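Per the series design text, the authors made the deposited table of linear signal intensity per probe set from Affymetrix CHP files. The sources used here do not give the summarisation method or genome build. Arrays shared 1 scale (mean after trimming 2% at each end close to 499.93 on all 9 arrays), with array medians between 55.831 and 61.312, and no further normalization was applied. The number of arrays limits the precision.

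Signals were taken as log2(signal + 16), which understates dim genes' changes. For each of 19775 genes the brightest probe set was used among those with 1 symbol in the platform annotation. Genes below the 30th percentile (a signal of 32.24) were left out, which left 13842. In R 4.3.3, limma 3.58.1 fitted group means over the 9 arrays (lmFit, eBayes), with Benjamini-Hochberg adjustment over all genes, or over 26599 probe sets in a parallel fit. The code was tested on simulated data. Paralogue differences were tested by exact permutation. The control level of an array is the brightest of its 27 Bacillus subtilis control probe sets.

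Members, lists and tests were chosen with earlier results of these data known. Named were all members, 4 regulators (INSIG1, SCAP, SREBF2, MLXIPL) at both times, up to 4 rises and 4 falls of the related list per comparison, and the 5 nearest profiles of SCD and ELOVL6. MDM2, CDK4 and the other markers came from a list of cell type markers. Alternatives were other pseudocounts (1, 64), quantile or median scaling, no filter or the 50th percentile, a trended robust variance, fits of 2 groups, the replicate number as a block, means over probe sets and leaving out each array.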

Additional observations from a re-analysis of the deposited data

Results flagged for a closer look

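In 4 genes the 24 h and 6 h HAase arrays differed by limma's test of 24 h against 6 h. Time of enzyme and time of harvest cannot be told apart in that comparison. SCD differed by -1.78 and ELOVL5 by -0.51, both lower at 24 h than at 6 h, on 3 of 3 arrays. All 4 SCD probe sets were called lower between the times, but only 1 of the 4 of ELOVL5. ACACB differed by -0.31, with 1 of its 5 tested probe sets called lower, and it was lower than PBS at both times. ELOVL6 differed by 0.46, and it was higher than PBS at both times.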

How the results depend on the processing

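The calls of ACACB, SCD, ELOVL6 and SREBF1 at 24 h, and of ACACB and ELOVL6 at 6 h, held in all 19 alternatives. The count of members called at 6 h was 6, and it was 3 with no filter on low signal, 3 with the replicate block, 2 for the mean of all probe sets of a gene and between 3 and 6 on leaving out 1 array. For the mean of all probe sets it was 4 at 24 h, against 8, and 2 between the times, against 4. The count between the times reached 6 under a trended robust variance and under a filter at the 50th percentile. That mean includes probe sets below the filter. Member probe sets called at 6 h ranged from 5 to 9 on leaving out 1 array, against 9. Apart from the SCD change at 6 h (0.21 for the mean of all probe sets), the log2 changes that turned sign had not passed the test. Under quantile normalization these were ACLY (-0.0616) and ELOVL5 (-0.019) at 6 h. For the mean of all probe sets they were FASN at 24 h (0.017), at 6 h (-0.078) and between the times (0.096), ACLY (-0.0076) and ELOVL5 (-0.090) at 6 h, FADS2 between the times (0.051), and ACACA minus ACACB between the times (-0.042). On leaving out 1 array, ACLY at 6 h ranged from -0.012 (without PBS replicate 1) to 0.0649, and was -0.0025 without 6 h HAase replicate 3. FASN at 6 h ranged from -0.0091 (without PBS replicate 3) to 0.1219. The causes were not tested. Over the genes tested, same-numbered arrays did not deviate together (correlations between -0.049 and 0.037). The labels do not say whether the numbers pair the arrays, and these correlations cannot exclude it. Under the replicate block 5187 genes were called at 24 h and 5447 at 6 h, against 5577 and 5863. The planned comparison of FADS2 with FADS1 was not run, because FADS1 had no probe set of its own symbol alone. Signals near the control level limit the dimmer probe sets.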
